A study of Mus musculus with 4 samples.

Results

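RNA of E15 telencephalic tissue was read for 10 genes that encode subunits of the Polycomb repressive complexes, Ezh1, Ezh2, Eed, Suz12, Jarid2, Bmi1, Rnf2, Ring1, Cbx2 and Cbx8. Telencephalic tissue is the wording of the paper's methods, whereas its results and the titles of the WT samples name cortex. The genes were chosen by name, and all 10 have 1 row each among the 26433 genes of the deposited count table. The study asked how human SERPINA3, a serpin that mice of the WT group do not carry, changes embryonic neurogenesis. The cKI f/+ embryos carry 1 Rosa26 allele in which human SERPINA3 sits behind a loxP-flanked stop cassette and the CAG promoter, and Nestin-Cre removes the cassette in Nestin-positive cells and their progeny. By this design, cells of the tissue outside the Nestin lineage keep the cassette. Which cell types of the tissue had lost it was not measured here. WT embryos were littermates of the same age, and the labels give C57BL/6 as the strain of both groups. According to the methods, founders had been bred with B6D2F2 mice before the cross to Nestin-Cre. There were 2 cKI f/+ libraries, named KI2 and KI3 in the table, and 2 WT libraries, named WT1 and WT3. Whether a library holds 1 embryo or several is not given in the sources used here, so p-values measure the spread between these libraries.

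Polycomb proteins keep developmental genes silent by marking their chromatin. PRC2 methylates lysine 27 of histone H3 through Ezh2 or its paralog Ezh1, and it needs Eed, which binds the methylated mark, and Suz12, which holds the complex together, while Jarid2 helps to bring PRC2 to its targets. PRC1 attaches ubiquitin to histone H2A through Rnf2 (also called Ring1b) or Ring1 (Ring1a), paired with a Pcgf protein such as Bmi1, and in canonical PRC1 a Cbx protein such as Cbx2 or Cbx8 reads the mark of PRC2. In the embryonic cortex, Ezh2 and Rnf2 are known from mutant mice to set the timing of neurogenesis in progenitors, and Bmi1 supports neural stem cell self-renewal by silencing the Cdkn2a locus.

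The libraries held between 17423512 and 18119444 reads on genes, so that the floor of 3 counts lay between 0.166 and 0.172 CPM, the counts scaled to library size. Lhx2 and Emx2, transcription factors of the dorsal telencephalon, had between 10563 and 13362 and between 1250 and 1485 reads. Reads of human SERPINA3 were not analysed here, so the labels were not checked against the transgene. Genotype was not the sole difference between the groups, since Xist had 13223 and 11882 reads in the cKI f/+ pair and 5 in each WT library, and the Y-linked genes Kdm5d and Ddx3y had 0 reads in both cKI f/+ libraries. These transcripts separate the libraries exactly as genotype does, and the 2 cannot be told apart. The 4 choroid plexus markers summed to 140 and 1095 reads in KI2 and KI3 against 8 and 30 in WT1 and WT3, mostly as Ttr in the cKI f/+ pair (adjusted p = 0.115 by edgeR), and the 4 meningeal markers summed to 237 and 193 against 51 and 95. Blood markers summed to 493 and 366 CPM in the cKI f/+ pair and 491 and 522 CPM in the WT pair. All 6 of these markers had a log2 fold change below 0, and 4 were lower in both cKI f/+ libraries (16.9% of all tested genes), but 0 were called. The part of these tissues in the results was not tested. In bulk tissue, fewer cells of a type and less RNA per cell cannot be told apart.

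All 10 genes were expressed well above the floor in every library, from 457 reads for Ezh1 in WT3 to 4064 for Ezh2 in KI3. To compare genes, normalized CPM were divided by the length of each gene's exons in kilobases (kb). On this scale, Ezh2 was the highest of the 10 genes at 31.9 ± 1.45 CPM per kb (SD over the 4 libraries) and Ezh1 the lowest at 3.85 ± 0.257. Between these ends came Bmi1 (25.8), Cbx2 (23.7), Ring1 (21.7), Rnf2 (20.8), Suz12 (19.1), Eed (12.4), Cbx8 (10.5) and Jarid2 (8.24), as mean CPM per kb. The steps from Ezh2 to Bmi1, from Rnf2 to Suz12, from Suz12 to Eed, from Cbx8 to Jarid2 and from Jarid2 to Ezh1 were larger than the spread over the libraries, meaning that the values of neighbours did not overlap. From Bmi1 to Cbx2, Ring1 and Rnf2, the range of each gene overlapped that of the next, although Bmi1 lay wholly above Rnf2. Within libraries, Bmi1 was above Cbx2 in 3 of 4, Cbx2 above Ring1 in 4 of 4 and Ring1 above Rnf2 in 2 of 4. Eed overlapped Cbx8 by their ranges and was also higher within each of the 4 libraries. Against all 15786 genes with enough reads to be tested, the level per kb of Ezh2 exceeded 88.6% and that of Ezh1 43.9%. When lengths were taken from the longest protein-coding transcript, Ezh2 and Ezh1 stayed the highest and the lowest gene, but the order between them changed. Ring1 moved from rank 4 to rank 2 and Cbx2 from rank 3 to rank 5. Eed (23.0 CPM per kb) then lay above Suz12 (21.6), and Jarid2 (13.3) above Cbx8 (10.7), so these steps depend on the length used.

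**Figure D1:**
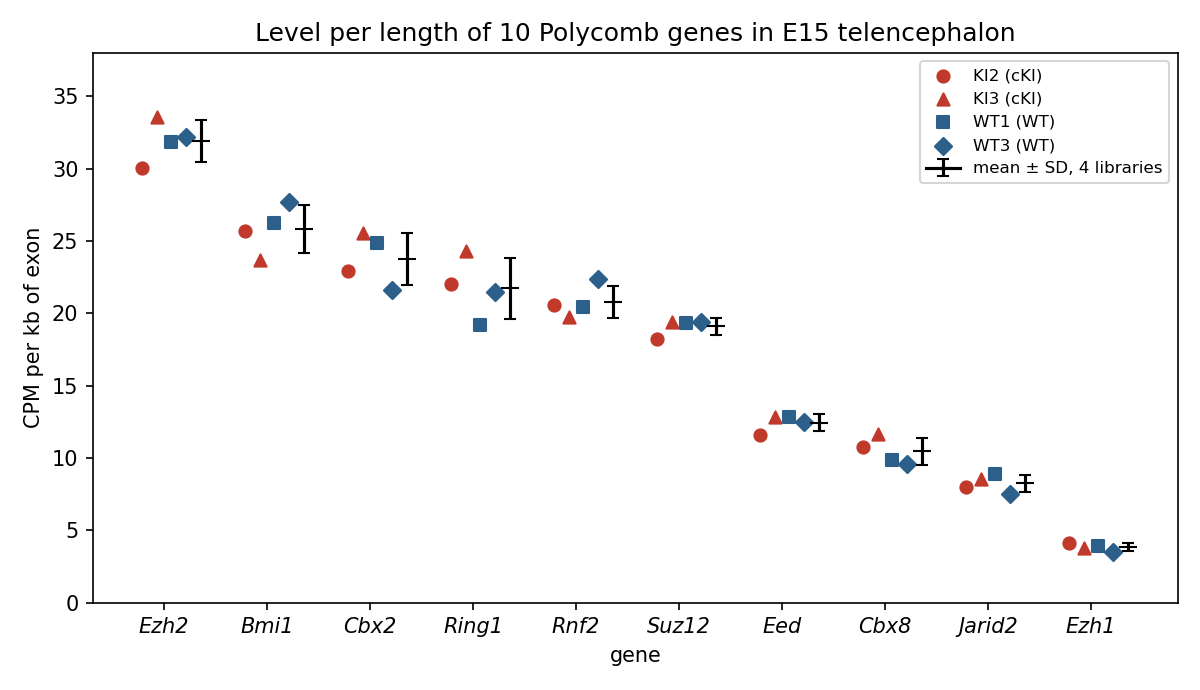
CPM per kb of exon for each of the 10 genes (vertical axis) in the 2 cKI f/+ libraries (red) and the 2 WT libraries (blue), with the mean and SD of the 4 libraries in black. Ezh2 lies near 31.9 and Ezh1 near 3.85 CPM per kb, and red and blue symbols mix for most genes.

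Of the PRC2 genes, none moved beyond the spread between libraries. Ezh2 (ENSMUSG00000029687, chromosome 6 of GRCm38 from 47530139 to 47595341, minus strand) encodes the main H3K27 methyltransferase of dividing cells. It had 3535 and 4064 reads in KI2 and KI3 and 3755 and 3743 in WT1 and WT3, so that the cKI f/+ libraries held both the lowest and the highest CPM. After normalization this was 212 ± 16.7 CPM (SD, n = 2) in the cKI f/+ pair and 214 ± 1.37 CPM (SD, n = 2) in the WT pair, a fold of 0.993 with a 95% confidence interval from 0.874 to 1.13. Ezh1, on chromosome 11 from 101191115 to 101226463, encodes the methyltransferase that is more usual in cells that no longer divide. It had 543 and 512 reads in KI2 and KI3 and 514 and 457 in WT1 and WT3, and the groups overlapped in CPM. Its fold was 1.07, with an interval from 0.900 to 1.26.

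The stretches before the RefSeq starts of Ezh2 and Ezh1 are shown because these paralogs had the most unequal levels, and those before Rnf2 and Ring1 because this pair had nearly equal levels per kb of exon. They come from RefSeq (GRCm38.p6), read 5′ to 3′ on the strand of the gene, with each CG dinucleotide in capitals. Parts covered by an annotated exon were left out, which shortens the first one. The RefSeq start of Ezh2 lies inside the span that the count table gives for the gene, so its stretch does too.
Ezh2, chr6:47595059-47595183, minus strand: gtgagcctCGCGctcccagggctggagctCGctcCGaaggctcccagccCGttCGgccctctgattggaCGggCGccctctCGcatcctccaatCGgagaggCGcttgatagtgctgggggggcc
Ezh1, chr11:101226464-101226713, minus strand: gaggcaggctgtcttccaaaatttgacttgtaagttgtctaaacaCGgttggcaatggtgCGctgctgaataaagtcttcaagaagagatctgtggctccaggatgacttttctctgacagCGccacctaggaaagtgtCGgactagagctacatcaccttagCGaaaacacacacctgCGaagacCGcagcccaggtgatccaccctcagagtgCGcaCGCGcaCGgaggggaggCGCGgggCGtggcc
Rnf2, chr1:151500992-151501241, minus strand: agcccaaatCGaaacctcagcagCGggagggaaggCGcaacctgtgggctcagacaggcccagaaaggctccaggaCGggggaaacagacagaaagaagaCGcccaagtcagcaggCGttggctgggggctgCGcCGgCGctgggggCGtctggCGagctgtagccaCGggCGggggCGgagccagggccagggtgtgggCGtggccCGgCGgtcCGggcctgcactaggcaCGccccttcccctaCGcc
Ring1, chr17:34024681-34024930, minus strand: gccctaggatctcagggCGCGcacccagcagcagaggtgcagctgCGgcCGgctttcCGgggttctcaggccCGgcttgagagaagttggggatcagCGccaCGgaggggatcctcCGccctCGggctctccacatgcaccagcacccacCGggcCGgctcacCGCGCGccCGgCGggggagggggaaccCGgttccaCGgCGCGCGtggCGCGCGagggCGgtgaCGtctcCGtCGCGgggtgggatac

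In these stretches, CG dinucleotides numbered 11 in 125 bases for Ezh2 and 14 in 250 bases for Ezh1. Rnf2 held 20 and Ring1 30, each in 250 bases. In full windows from 250 bases before to 50 after the start, which were found for 9 of the 10 genes, the count ran from 17 CG dinucleotides for Eed to 41 for Suz12. The median was 24 over the 10 windows of these 9 genes, as Jarid2 has 2 starts, against 20 over the 14148 windows of tested genes and 7 over all 32851 windows. Against all windows, a CG-rich start was therefore shared by the 9 genes, but it was also common among expressed genes. The window of Eed lay below the median of tested genes. The GC box (GGGCGG on either strand) occurred in windows of 6 of the 9 genes and in 61.6% of the windows of tested genes. The CCAAT box (CCAAT on either strand) occurred in windows of 5 of the 9 genes and in 37.2% of those windows, with 2 copies in the stretch of Ezh2. The TATA box (TATAAA on either strand) was present for 1 gene, Jarid2, and in 7.12% of the windows of tested genes. These are matches of letters, and binding was not measured.

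**Figure D2:**
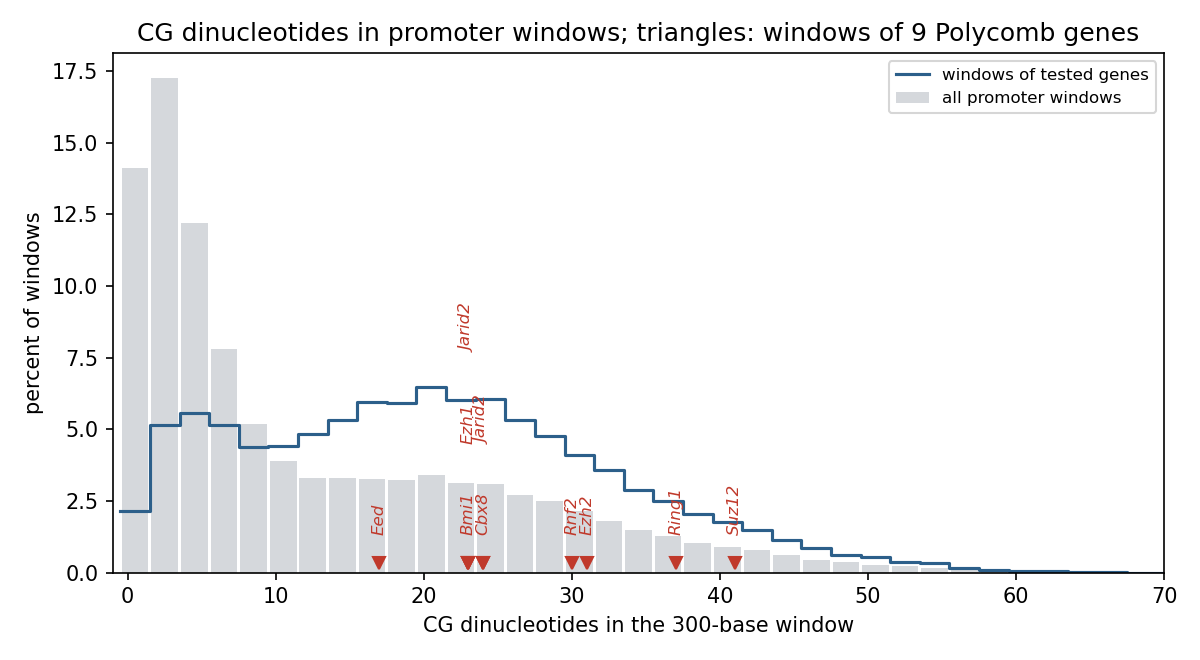
Share of promoter windows (vertical axis, percent) by the number of CG dinucleotides in the 300 bases (horizontal axis), for all windows (grey bars) and windows of tested genes (blue line). Red triangles mark the windows of 9 Polycomb genes, which lie between 17 and 41.

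Eed, Suz12 and Jarid2 did not pass the test either. Eed, on chromosome 7 from 89954654 to 89980983, had 781 and 891 reads in the cKI f/+ pair and 867 and 833 in the WT pair, and KI3 and WT1 were equal in CPM within rounding (49.2 and 49.2). Its fold was 0.964, with an interval from 0.832 to 1.12. Eed shares 261 exon bases with E230029C05Rik on the other strand, which had between 16 and 36 reads. Suz12, on chromosome 11 from 79993106 to 80034123, was the steadiest of the 10 genes, with 1588 and 1740 reads against 1688 and 1673. The highest Suz12 library exceeded the lowest by 1.07-fold in CPM, and the fold between groups was 0.971 (95% confidence interval from 0.860 to 1.10). Jarid2, on chromosome 13 from 44729474 to 44921643, had 1366 and 1507 reads in the cKI f/+ pair, and its highest and lowest values both fell in the WT pair, with 1525 in WT1 and 1274 in WT3. The fold of Jarid2 was 1.01, and its interval reached from 0.865 to 1.17.

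Among the PRC1 genes, the E3 ligases Rnf2 and Ring1 leaned in opposite directions, and neither passed the test. Rnf2, on chromosome 1 from 151458004 to 151500955, had 1494 and 1479 reads in the cKI f/+ pair and 1490 and 1607 in the WT pair. The groups overlapped, because KI2 was slightly above WT1 in CPM (84.8 against 84.5). Rnf2 shares 158 exon bases with Trmt1l on the other strand, which had between 754 and 799 reads, and reads in those bases cannot be told apart. Ring1, on chromosome 17 from 34020792 to 34024680, had 1257 and 1428 reads in the cKI f/+ pair and 1096 and 1215 in the WT pair. Both cKI f/+ libraries were above both WT libraries, though KI2 and WT3 were close at 71.3 and 69.7 CPM. The log2 fold change of Ring1 was 0.19 (standard error 0.09, adjusted p = 0.969 by edgeR). Ring1 lies beside the class I genes of the major histocompatibility complex. Its nearest tested neighbours were H2-K1, with 79 and 85 reads against 91 and 105, and Slc39a7, with 13 and 11 reads against 6 and 11, and neither was called.

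Bmi1, a Pcgf partner of the ligases, lies on chromosome 2 from 18677018 to 18686629. There were 1801 and 1705 reads in the cKI f/+ pair and 1839 and 1920 in the WT pair, so that both cKI f/+ libraries were lower. In CPM this was 98.1 ± 5.76 (SD, n = 2) against 107 ± 4.20 (SD, n = 2), or -0.13 on the log2 scale, which did not pass (standard error 0.08, adjusted p = 0.969 by edgeR). The processed copy Gm5946 shares 27.5% of the 31-base words of Bmi1 transcripts, but it held at most 4 reads in a library. Its paralog Pcgf2 (Mel18) had 3011, 3353, 3133 and 3104 reads in KI2, KI3, WT1 and WT3, and per kb it was the more abundant of the pair.

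Cbx2 and Cbx8 are neighbours on chromosome 11, 5035 bases apart and on opposite strands, at 119022962 to 119031270 and 119036305 to 119040969. Both encode chromodomain proteins that bind methylated lysine 27 of histone H3. Cbx8 had 697 and 776 reads in the cKI f/+ pair and 637 and 615 in the WT pair, and its groups did not overlap. Its log2 fold change of 0.21 was the largest of the 10 genes (standard error 0.10, unadjusted p = 0.0594 and adjusted p = 0.969 by edgeR). In CPM, Cbx8 was 41.2 ± 2.30 in the cKI f/+ pair and 35.7 ± 0.578 in the WT pair (SD, n = 2 each). Cbx2 had 1722 and 1971 reads against 1865 and 1605, and its groups overlapped with each group holding 1 of the higher and 1 of the lower values. Rbfox3, the nearest tested gene on the other side of Cbx2, had 2708 and 3061 reads against 2649 and 2601.

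Between cKI f/+ and WT mice, 0 of the 10 genes were called at an adjusted p under 0.05 with edgeR's quasi-likelihood test, as against 0.12% of all tested genes (0.0697% higher and 0.0507% lower in the cKI f/+ pair). At an unadjusted p under 0.05 the number was also 0 of 10, where 4.6% of all tested genes passed, and DESeq2 called 0. In 3 of the 10 genes, Ring1, Cbx8 and Bmi1, the groups did not overlap, and this held for 34.1% of all tested genes, so the share was near the background. Higher levels in both cKI f/+ libraries were seen for 2 of the 10 genes (17.3% of all tested genes) and lower levels for 1 (16.9%). The log2 fold changes were positive for 5 genes and negative for 5, with a median of 0.00023 beside 0.0043 for all tested genes. Their median size, regardless of sign, was 0.07, and that of all tested genes was 0.10. Of the separate 95% confidence intervals, the highest upper bound was a 1.34-fold increase for Cbx8 and the lowest lower bound a fold of 0.807 for Bmi1. These intervals are not limits of detection, and they cover every difference between the groups, not genotype alone. KI3 held the highest CPM for 5 of the 10 genes and the lowest for 2, and WT3 the lowest for 4 and the highest for 3.

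**Figure D3:**
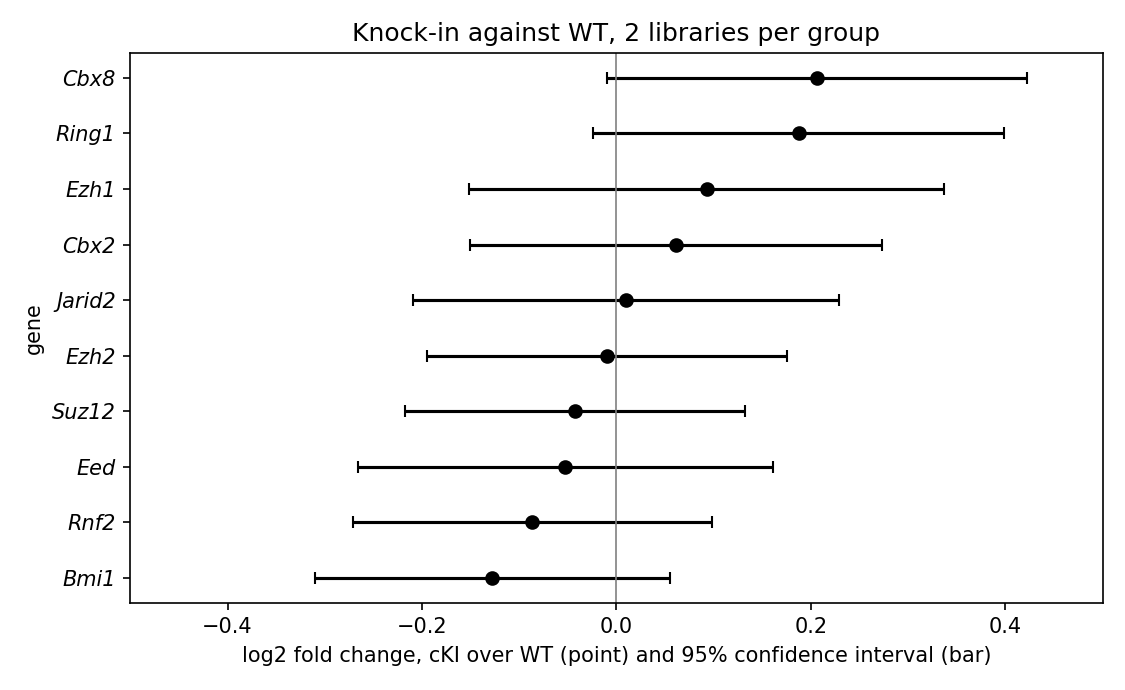
Log2 fold change of cKI f/+ over WT (points) with 95% confidence intervals (bars) for the 10 genes, from edgeR's quasi-likelihood fit of 2 libraries per group. Every interval includes 0, and the points run from -0.13 for Bmi1 to 0.21 for Cbx8.

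The balance between paralogs, which does not depend on library size, was read within each library as a ratio of CPM per kb. Ezh2 exceeded Ezh1 by 7.25-fold in KI2, 8.84-fold in KI3, 8.14-fold in WT1 and 9.12-fold in WT3, and the groups overlapped. By exon length Rnf2 and Ring1 were close to equal, with Rnf2 at 0.934 and 0.814 of Ring1 in the cKI f/+ pair and at 1.07 and 1.04 in the WT pair. The Rnf2 to Ring1 ratio was thus lower in both cKI f/+ libraries than in both WT libraries, by 0.27 on the log2 scale (two-sided exact permutation test, p = 0.333, which is the smallest this design allows). By the longest coding transcript, the mean ratio of Rnf2 to Ring1 was 0.779 in place of 0.964. Cbx2 exceeded Cbx8 by 2.13-fold and 2.19-fold in the cKI f/+ pair and by 2.53-fold and 2.25-fold in the WT pair. That difference of -0.14 on the log2 scale also gave the smallest permutation p of 0.333. Bmi1 stood at 0.531 and 0.451 of Pcgf2 in the cKI f/+ pair and 0.521 and 0.549 in the WT pair, with overlapping groups. The exact permutation p was 0.667 for both the Ezh2 to Ezh1 and the Bmi1 to Pcgf2 ratio. With 4 ratios tested and none able to pass 0.05, they are descriptions of these libraries.

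**Figure D4:**
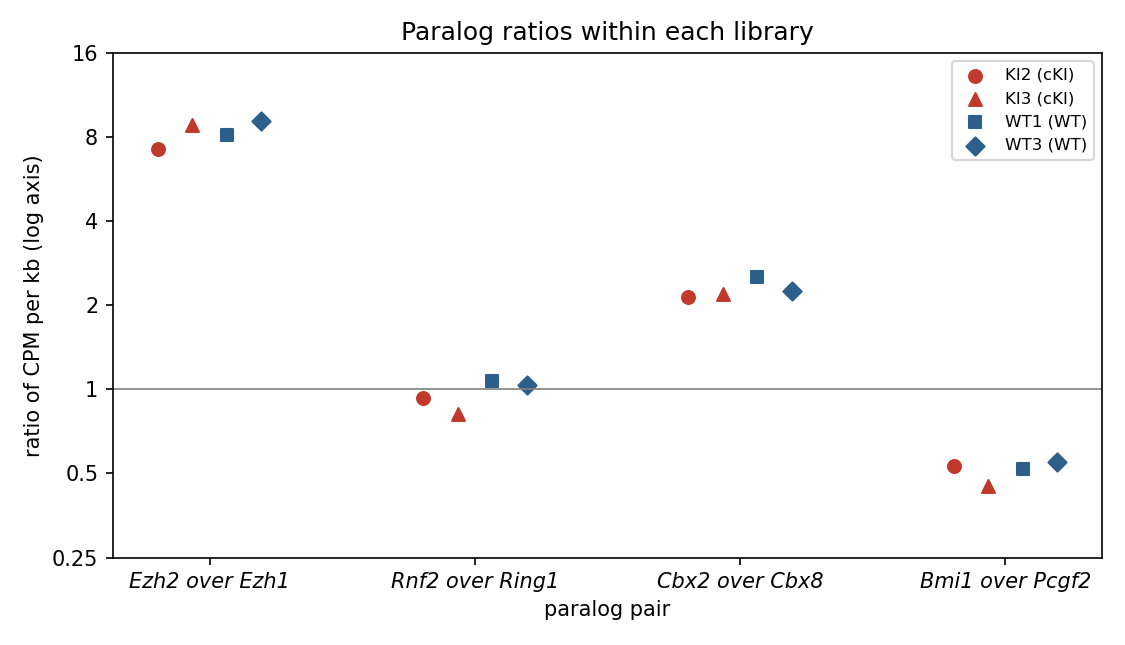
Ratio of CPM per kb within each library (vertical axis, log scale) for 4 paralog pairs, with cKI f/+ libraries in red and WT libraries in blue. Ezh2 stands between 7.25 and 9.12 times Ezh1, and Rnf2 lies near equality with Ring1.

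The other subunits of the complexes were not called either. Of 31 partner genes, 8 of PRC2, 8 of canonical PRC1 and 15 of variant PRC1, all were tested and 0 were called with edgeR or with DESeq2. An unadjusted p under 0.05 was seen for 1 of the 31, beside 4.6% of all tested genes. Their median log2 fold change was -0.0087, with 14 genes above 0 and 17 below, and the groups did not overlap in 10 of the 31, beside 34.1% of all tested genes. Both cKI f/+ libraries were higher for 3 of the 31 (17.3% of all tested genes) and lower for 7 of the 31 (16.9%). The gene past the unadjusted threshold was Epop, whose product binds PRC2 together with elongin B and C. Epop had 698 and 715 reads in the cKI f/+ pair and 597 and 589 in the WT pair, a log2 fold change of 0.22 (adjusted p = 0.969 by edgeR). Mtf2, which directs PRC2 to CG-rich DNA, had 1035 and 1001 reads against 1103 and 1113. The histone-binding subunits Rbbp7 and Rbbp4 were the most abundant PRC2 partners, at 49.4 and 34.2 CPM per kb.

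In canonical PRC1, the polyhomeotic gene Phc2 (53.1 CPM per kb) and Pcgf2 (50.5) led, and Phc3 and Cbx6 had the smallest p. Phc3 had 648 and 634 reads in the cKI f/+ pair and 711 and 694 in the WT pair, and Cbx6 had 2664 and 2862 against 2536 and 2429. In variant PRC1, which lacks Cbx proteins, Skp1a reached 153 CPM per kb, although its product also serves the SCF ubiquitin ligases. Mga, the scaffold of the Pcgf6 complex, had 1140 and 977 reads against 1220 and 1200, and its partner Max had 1921 and 2022 against 1724 and 1771. Mga and Max leaned in opposite directions, with log2 fold changes of -0.22 and 0.15, and neither was called.

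Among the genes for enzymes that remove the histone marks of Polycomb, their cofactors and trithorax proteins, the smallest p was that of an X-linked gene. Of 23 such genes, 10 for H2A deubiquitinases and their cofactors and 13 for H3K27 demethylases and trithorax proteins, 0 were called with edgeR or with DESeq2. The groups did not overlap in 7 of the 23, beside 34.1% of all tested genes. An unadjusted p under 0.05 was seen for 1 of the 23, beside 4.6% of all tested genes. That gene was Kdm6a, the X-linked H3K27 demethylase also called Utx, which is known to escape X inactivation. Kdm6a had 607 and 635 reads in the cKI f/+ pair and 479 and 444 in the WT pair, a fold of 1.32 with a 95% confidence interval from 1.13 to 1.54 (adjusted p = 0.667 by edgeR). Uty, its paralog on chromosome Y, had no read in KI2 or KI3 and 218 and 214 reads in WT1 and WT3, at least 72.1-fold lower by the floor of 3 counts per library (adjusted p = 3.16e-05 by edgeR). The reads of Kdm6a and Uty together were 607 and 635 in the cKI f/+ pair and 697 and 658 in the WT pair, so that the sum was lower in the cKI f/+ pair where Kdm6a alone was higher. Embryo sex and genotype are the same split of these libraries, and for Kdm6a they cannot be told apart.

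Kdm6b, the autosomal H3K27 demethylase, had 4783 and 5066 reads in the cKI f/+ pair and 4546 and 4145 in the WT pair, which was not called (log2 fold change 0.15, adjusted p = 0.969 by edgeR). Kdm6b was about as abundant per kb as Men1, a subunit of the trithorax complexes (37.6 against 38.1 CPM per kb), and Dpy30, another such subunit, reached 46.6. Bap1, the H2A deubiquitinase, and its cofactor Mbd6 had 43.6 and 45.5 CPM per kb, with log2 fold changes of -0.02 and 0.02. The Bap1 cofactors Asxl2 and Asxl3 had the smallest p of that list. Asxl2 had 421 and 411 reads against 582 and 418, with WT1 apart from the other libraries, and Asxl3 had 681 and 665 reads against 790 and 692.

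**Figure D5:**
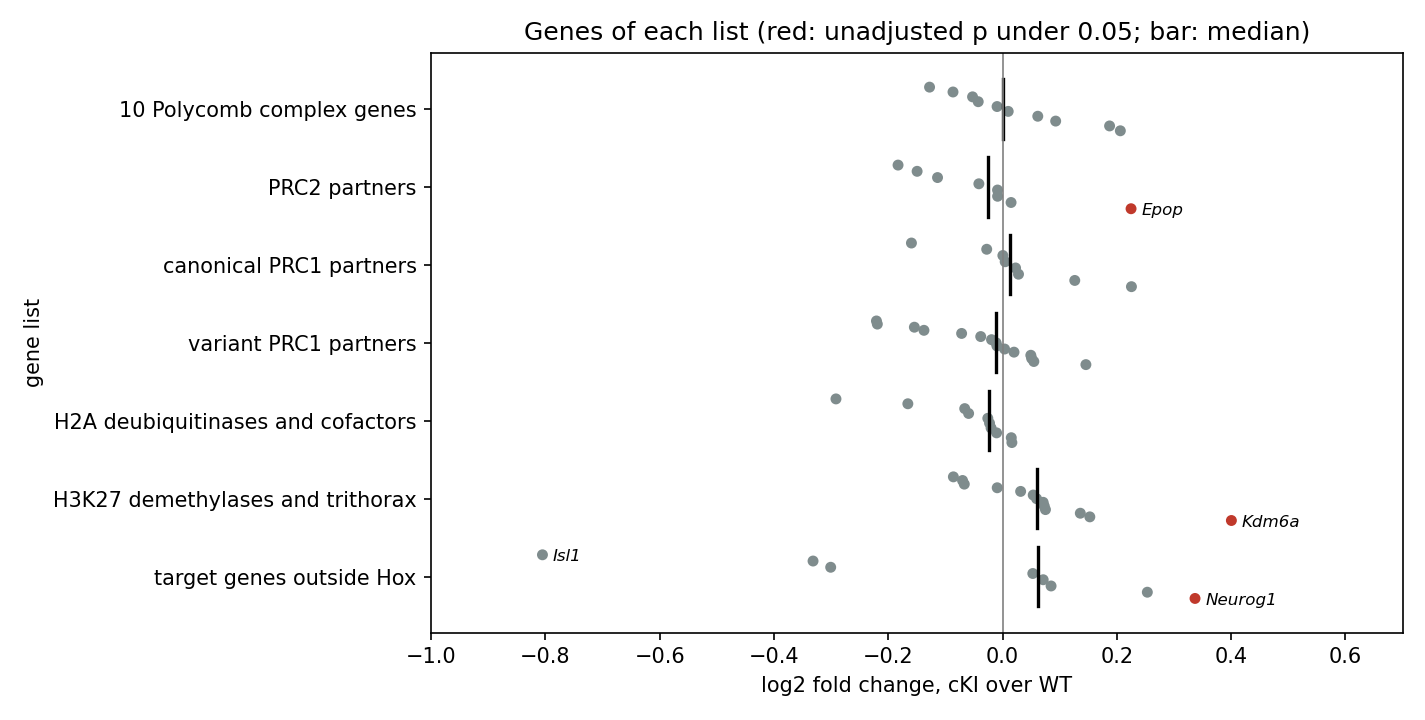
Log2 fold change of cKI f/+ over WT (horizontal axis) for each tested gene of 7 lists, with the median of each list as a black bar. Genes at an unadjusted p under 0.05 are red and are Epop, Kdm6a and Neurog1, and none of the 10 Polycomb genes is among them.

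Genes that Polycomb is known to keep silent were read next. Of 39 Hox genes, 6 had a row in the table, whose rows all hold at least 1 read, and the other 33 had none. These 6 had at most 3 reads in any library, and summed to 2 and 5 reads in KI2 and KI3 and to 1 and 6 in WT1 and WT3, at or near the floor in both groups. The highest were Hoxc6, with 1, 2, 0 and 2 reads in KI2, KI3, WT1 and WT3, and Hoxb9, with 0, 1, 0 and 3. Cdkn2a, the cell cycle inhibitor locus that Bmi1 is known to repress, had 4 and 0 reads in the cKI f/+ pair and 1 and 2 in the WT pair, and the neighbouring Cdkn2b had at most 2. A difference between the groups at these genes was not detectable at this depth.

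Of 20 other target genes, 17 had a row and 8 had enough reads to be tested. With edgeR 0 of the 8 were called, beside 0.12% of all tested genes, and DESeq2 also called 0. The groups did not overlap in 3 of the 8, beside 34.1% of all tested genes. An unadjusted p under 0.05 was seen for 1 of the 8, Neurog1, beside 4.6% of all tested genes. Neurog1, a proneural factor that Polycomb is known to shut down late in neurogenesis, had 399 and 468 reads in the cKI f/+ pair and 356 and 317 in the WT pair, a fold of 1.26 with an interval from 1.04 to 1.53 (unadjusted p = 0.0216 and adjusted p = 0.969 by edgeR). Fezf2, which specifies deep-layer neurons and is another gene of that kind, had 5710 and 5409 reads against 5389 and 5001, with overlapping groups in CPM. Eomes, the factor of intermediate progenitors, had 6164 and 6292 reads against 5985 and 5538. Lhx9 had 490 and 619 reads against 399 and 512. Isl1, a factor of striatal and other ventral neurons, had 1 read in KI2 against 30 in KI3, 21 in WT1 and 32 in WT3. Its log2 fold change of -0.81 was set by KI2, since it was 0.12 without KI2 and -4.57 without KI3, where it was called (adjusted p = 0.0104 by edgeR). For the ventral factors Dlx2 and Nkx2-1, the reads were 437 and 609 against 679 and 862, and 19 and 17 against 6 and 3. Neither was called, and they were the 2 of 7 ventral markers whose groups did not overlap, beside 34.1% of all tested genes. The groups overlapped for Dlx1, Dlx5, Gad1, Gad2 and Lhx6. Together the 7 markers summed to 240 and 249 CPM in the cKI f/+ pair and 244 and 306 CPM in the WT pair.

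Ezh2 is known to be high in cycling cells, and the summed markers of proliferation and of progenitors overlapped between groups. The 8 proliferation markers summed to 1247 and 1342 CPM in the cKI f/+ pair and 1330 and 1255 CPM in the WT pair, and the 5 progenitor markers to 1653 and 1763 against 1637 and 1695. The 7 neuronal markers summed to 5501 and 5034 CPM in the cKI f/+ pair and 5549 and 5658 in the WT pair, lower in both cKI f/+ libraries, and none of the 7 was called. KI3 held the highest value for 5 of the 10 Polycomb genes and the lowest for 2. It had the highest progenitor and proliferation sums and the lowest neuronal sum of the 4 libraries. The part of these cell shares in the values was not tested.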

How the data were processed

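The authors sequenced total RNA from E15 tissue, named telencephalic in the methods and cortex in the WT sample titles, and the raw counts of 4 libraries were deposited. The submitters' processing notes name Bowtie2 2.2.3, TopHat2 2.0.12 and HTSeq 0.6.0 and a mouse build mm9, whereas 24486 of the 26433 gene positions in the table equal those of GENCODE M21 (GRCm38). Strandedness is not given in the sources used here, so reads where a gene overlaps an antisense partner (Rnf2 with Trmt1l, Eed with E230029C05Rik) cannot be told apart. The deposited table also gives the authors' mean normalized signal, fold change as a ratio and as log2, and p-value, which were not used. Columns were assigned to a genotype by name, not to single labelled samples. The libraries of a group were not copies, with a chi-square per degree of freedom of 5.63 for the cKI f/+ pair and 7.49 for the WT pair.

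From the counts, edgeR 4.0.16 in R 4.3.3 kept 15786 genes with its default filter and scaled them by TMM. Groups were compared over all of them with the quasi-likelihood test and Benjamini-Hochberg adjustment at 0.05, and the biological coefficient of variation was 8.72%. The standard error is the log2 fold change divided by the root of F, and the 95% confidence interval uses the t distribution of the test. The code was tested on simulated data. CPM use the effective library sizes, and lengths are the union of GENCODE M21 exons. Floors cover counting error only. Alternatives were DESeq2 1.42.0, the likelihood ratio test, other normalizations and filters, fits lacking the sex chromosomes, and fits lacking a single library.

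The 10 genes and all lists were chosen with earlier results of these data known. Named besides the 10 genes were, per list, called genes, the 2 with the smallest p and the 2 with the highest CPM per kb, together with Pcgf2, sex-linked genes, overlapping genes and the neighbours of Ring1, Cbx2 and Cbx8. Most genes of the marker lists are given as sums only, and some genes under the rule are not reported here. Isl1, Cdkn2a, Cdkn2b, Hoxc6, Hoxb9 and Gm5946 were named after their values were seen. Outside the sex-linked genes, no marker gene was called in this test, those of dorsal and ventral telencephalon, intermediate progenitors, endothelium and microglia included.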

Additional observations from a re-analysis of the deposited data

How the results depend on the processing

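None of the 10 Polycomb genes was called under any of the 12 alternative fits. Outside the fits that left out a library, each kept its direction, from -0.13 to -0.12 for Bmi1 and from 0.20 to 0.21 for Cbx8. The lowest unadjusted p was 0.0172, for Ring1 without WT3 (adjusted p = 0.480). When single libraries were dropped, log2 fold changes lay between -0.092 and 0.058 for Ezh2, -0.13 and 0.0092 for Eed, -0.11 and 0.13 for Jarid2, and -0.034 and 0.16 for Cbx2, so these 4 changed direction.

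The number of called genes was 19, and was 54 with the likelihood ratio test. It was 6 when every library had to hold at least 10 counts, 11 when the sex chromosomes were removed, 726 at an unadjusted p under 0.05, and between 48 and 71 with a library left out. The called target genes numbered between 0 and 1 there, the 1 being Isl1. The cause was not tested, except that fewer genes were tested with the filter at 10 counts and without the sex chromosomes. The log2 fold change of Pcgf2 turned from 0.00061 to -0.0010 with DESeq2, -0.0016 with DESeq2's size factors, -0.0048 with library size alone, -0.0052 with the filter at 1 count and -0.00055 without chromosomes X and Y. Skp1a turned to -0.0018 with library size alone and -0.0021 with the filter at 1 count. With a library left out, direction also changed for other genes, with ranges from -0.075 to 0.029 for Bap1, -0.00050 to 0.13 for Fezf2, -4.57 to 0.12 for Isl1, -0.0042 to 0.026 for Mbd6, -0.058 to 0.046 for Pcgf2, -0.053 to 0.093 for Phc2, -0.11 to 0.012 for Rbbp4, -0.11 to 0.091 for Rbbp7 and -0.14 to 0.15 for Skp1a. Some marker genes gained a call. Ttr, of the choroid plexus, was called with the likelihood ratio test (adjusted p = 1.89e-11) and without each of the libraries (adjusted p up to 0.0111), though not with DESeq2 (0.185). Col1a1, of the meninges, was called with the likelihood ratio test and without KI3 or WT3, and Dlx2 without KI3 or WT1. The reads of Kdm6a and Uty together gave a log2 ratio of -0.15 in place of 0.40, an alternative chosen after seeing the data.

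No paired analysis was possible because the labels share no number across genotypes and the columns share just 1. Fits without a library assume that the lone library varies like the others. With 2 libraries per group, the separate intervals of the 10 genes reach from a fold of 0.807 to one of 1.34. Differences within a gene's interval are not excluded, and the intervals are not limits of detection.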
